A study of Rattus norvegicus with 167 samples.

Results

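The circadian clock genes described here are Per1, Per2 and Per3, Dbp and Tef, and Nr1d1 and Nr1d2. They are a list of 7 genes whose probe sets were chosen by measured values: each gene was read from the single-symbol probe set with the highest mean over all 167 arrays, and the list was named with earlier results of these arrays in view. All 7 were among the 14217 genes that had a probe set of a single symbol, and all 7 passed the filter on low values that left 12040 genes for testing. The arrays came from the thoracic spinal cord of adult female Wistar rats. The cord was cut completely at T7/8 and 5 mm of it was taken out. In lesion control (LC) animals the gap was left as it was. In the other animals it held a 5 mm chitosan tube, either empty (ET) or loaded with neurotrophin 3 (NT3). Cord pieces of 5 mm were taken on days 1, 3, 10, 20, 30, 60 and 90, from just rostral of the lesion in 62 arrays, from just caudal of it in 63, and from the lesion site in 39. A further 3 arrays of uninjured cord were the only arrays without surgery, so surgery is shared by all LC, ET and NT3 groups. Of the 56 groups, 55 had 3 arrays and rostral ET on day 10 had 2. The lesion site had no day 1, and its ET arm had day 3 only. The labels do not give the hour of day at which tissue was taken, nor whether replicates are separate animals or whether a replicate number links the segments of an animal. The p-values below therefore measure the spread between these samples, and differences in the hour of sampling between groups cannot be told apart from differences between the groups.

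The clock of a cell is a loop of transcription factors. BMAL1 (also called ARNTL) pairs with CLOCK or NPAS2 and binds E-boxes in the genes it activates, among them the Per and Cry genes, Nr1d1, Nr1d2, Dbp and Tef. The PER and CRY proteins return to the nucleus and inhibit that pair, and the transcripts rise and fall once a day as a result. NR1D1 and NR1D2 (REV-ERB alpha and beta) repress Bmal1 through elements that ROR proteins use to activate it. DBP, TEF and HLF are PAR bZIP activators of genes with a D-box, and NFIL3 represses through the same box. The phase and the height of these rhythms depend on the tissue, and Per1 is also a direct target of glucocorticoids. A single piece of cord gives 1 point on such a cycle.

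The RefSeq promoters of the members, here the 250 bases before each start site on GRCr8, were searched on both strands for letters that these factors are known to bind. The motifs were the E-box CACGTG, the related CACGTT, the D-box TTATGTAA or TTACGTAA, and the half-site TAGGTCA or TGGGTCA of REV-ERB and ROR. All 7 members matched, with 8 promoters. The 3 member promoters shown are 1 from each family, and Bmal1 is shown because it is the known target of NR1D1 and NR1D2. Capitals mark the motifs. The sequences stand in the order of Per2 (chr9:99496994-99497243, minus strand), the second start site of Nr1d1 (chr10:84229455-84229704, minus strand), Tef (chr7:115206577-115206826, plus strand) and Bmal1 (chr1:176766078-176766327, plus strand).
Per2: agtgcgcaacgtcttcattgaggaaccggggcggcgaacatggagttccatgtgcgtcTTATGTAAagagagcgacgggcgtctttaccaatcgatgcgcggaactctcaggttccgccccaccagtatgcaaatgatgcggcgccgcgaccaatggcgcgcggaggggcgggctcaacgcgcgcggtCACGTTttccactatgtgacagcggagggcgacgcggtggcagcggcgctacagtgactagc
Nr1d1: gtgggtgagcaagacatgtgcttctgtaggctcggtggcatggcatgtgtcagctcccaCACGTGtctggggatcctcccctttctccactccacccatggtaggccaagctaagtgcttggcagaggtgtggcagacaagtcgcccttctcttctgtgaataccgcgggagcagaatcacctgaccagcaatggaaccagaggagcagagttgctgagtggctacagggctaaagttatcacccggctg
Tef: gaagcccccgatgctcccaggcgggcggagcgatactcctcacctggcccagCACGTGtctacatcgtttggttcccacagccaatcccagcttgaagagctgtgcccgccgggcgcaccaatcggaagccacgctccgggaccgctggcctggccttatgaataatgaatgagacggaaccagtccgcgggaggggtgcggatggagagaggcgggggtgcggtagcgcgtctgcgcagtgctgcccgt
Bmal1: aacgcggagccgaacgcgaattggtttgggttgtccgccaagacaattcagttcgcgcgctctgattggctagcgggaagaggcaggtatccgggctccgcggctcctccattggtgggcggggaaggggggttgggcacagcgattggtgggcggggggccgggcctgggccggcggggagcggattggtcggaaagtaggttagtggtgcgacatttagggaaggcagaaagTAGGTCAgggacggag

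The Per2 window held TTATGTAA at positions -192 to -185 from the start site and CACGTT at -62 to -57. The Nr1d1 window held CACGTG at -191 to -186 from its second start site, and the window of its first start site held CACGTT on the opposite strand. The Tef window held CACGTG at -198 to -193, and the Bmal1 window held TAGGTCA at -16 to -10. None of these letters was in the windows of Per1, Per3, Dbp or Nr1d2. Of 33469 promoters of the same length, 5.59% held CACGTG, 4.07% CACGTT, 0.932% a D-box and 5.62% the half-site, so 3 members with a motif is a description of these windows and no sign of binding.

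Values are the deposited log2 signals, in which 1 unit is a 2-fold step, and levels of different probe sets are not compared. The array medians lay between 7.10 and 7.25. The segments matched their labels by markers: the neuronal gene Snap25 had a median of 13.9 in uninjured, 13.4 in rostral and 13.5 in caudal arrays but 10.6 at the lesion site, where the collagen gene Col1a1 rose from an uninjured median of 8.45 to 13.3. Of 7 tested neuronal markers all were lower in LC than in uninjured cord on every rostral and lesion-site day and 6 or 7 on each caudal day, with median differences of -2.94 to -5.29 at the lesion site and -0.71 to -1.32 rostrally. The 6 fibroblast genes were all higher there, by medians of 4.18 to 4.63. The part of this change in tissue makeup in the results below was not tested, and in pieces of tissue fewer cells of a type and less RNA per cell cannot be told apart. RT1-CE10, a rat class I MHC gene, lay above a log2 signal of 9 in 58 arrays. It was above in all rostral LC arrays of days 1, 30 and 90 and in none of the uninjured arrays. Most groups lay wholly on the same side, but the LC groups of day 3 and of lesion-site day 20 were split. Of 3 arrays, 1 was above on rostral day 3, and 2 were on caudal day 3, lesion-site day 3 and lesion-site day 20. The 3-prime to 5-prime difference of beta-actin, a measure of RNA quality, was 1.72 ± 0.51 (SD, n = 3) in uninjured arrays and averaged 1.01 in rostral arrays, and its part was not tested beyond a fit with it as a covariate. Lesion LC day 20 replicate 5, lesion NT3 day 3 replicate 1 and uninjured replicate 2 stood apart from their groups.

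The first question was how the clock genes changed with time after transection in LC cord. Rostral of the lesion Dbp, Tef and Nr1d2 were low on days 1, 3 and 10 and Nr1d1 on days 3 and 10, and the Per genes and Dbp stood above uninjured cord on day 30. Of 49 pairs of member and day, 20 passed the threshold of an adjusted p of 0.05, 16 of them lower and 4 higher than uninjured cord. Of all gene and day pairs in that comparison, 55.5% passed, so the members' share was not above that background. By day, 4, 4, 4, 3, 4, 0 and 1 of 7 members passed on days 1, 3, 10, 20, 30, 60 and 90, beside 62.6%, 64.3%, 57.1%, 54.7%, 52.2%, 45.9% and 51.3% of all genes. Every member differed across the 7 days of LC (limma F test, 7 of 7), as did 72.5% of all genes tested. Of the 20 calls against uninjured cord, 12 held when each of the 6 arrays was left out in turn, and 16 pairs passed without the 3 arrays that stood apart. With a gene's probe sets averaged 13 passed, and the Nr1d2 difference of day 10 turned to 0.00169.

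Tef, the PAR bZIP gene with the smallest spread in a group (median SD 0.109), had levels of 9.61, 9.58 and 9.64 in uninjured cord. In rostral LC cord it read 9.28, 9.15 and 9.10 on day 1, 9.01, 9.20 and 9.02 on day 3, and 9.33, 9.02 and 9.30 on day 10. All 9 arrays lay below all uninjured ones. The differences were -0.44 (SE 0.081, limma adjusted p = 6.8e-06) on day 1, -0.54 (adjusted p = 1.1e-07) on day 3 and -0.40 (adjusted p = 4.3e-05) on day 10. On day 30 Tef was back at 9.56, 9.52 and 9.55, a difference of -0.07 that did not pass. On day 90 it read 9.33, 9.36 and 9.24, lower than uninjured cord by 0.30 (adjusted p = 0.00145). The day 20 call (-0.27, adjusted p = 0.00346) was lost without LC replicate 2 (adjusted p = 0.066). The other Tef probe sets, with mean levels of 5.68 and 6.90, had the same sign in 9 and 8 of 14 called differences over all comparisons, with medians of -0.05 and -0.0045 where the one used here had -0.41. The Tef changes thus rest on 1 probe set.

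Dbp, whose protein is the PAR bZIP activator with the widest known daily swing, crossed from one side of uninjured cord to the other. Uninjured arrays read 9.06, 9.15 and 9.28. Rostral LC arrays read 8.57, 8.33 and 8.69 on day 1 and 9.70, 9.73 and 9.87 on day 30. Neither group overlapped the uninjured arrays: day 1 lay below them and day 30 above. Dbp was lower by 0.64 on day 1 (SE 0.174, limma adjusted p = 0.00143, 1.55-fold) and higher by 0.60 on day 30 (adjusted p = 0.00316, 1.52-fold). It was also lower on day 3 (-0.53, adjusted p = 0.00662; 0.0563 without LC replicate 3) and on day 10 (-0.40, adjusted p = 0.0472). The day 10 call was lost without uninjured replicate 2 or 3 or LC replicate 1 or 3, with adjusted p values of 0.0661 to 0.175.

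Nr1d2, which encodes the repressor REV-ERB beta, had the largest early fall in rostral cord. Uninjured arrays read 10.48, 9.88 and 10.25, and LC arrays of day 3 read 9.41, 9.44 and 9.41. The day 3 arrays lay close together and below every uninjured array. The difference was -0.78 (limma adjusted p = 9.5e-06, 1.72-fold lower), after -0.62 on day 1 (SE 0.148, adjusted p = 2.8e-04). The differences of -0.34 on day 10 (adjusted p = 0.046) and -0.37 on day 20 (adjusted p = 0.0313) were each lost without uninjured replicate 1 or 3 or 1 of the LC arrays, with values of up to 0.458. By day 30 Nr1d2 read 10.12, 10.10 and 10.15, inside the range of uninjured cord.

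Nr1d1, which encodes REV-ERB alpha, did not follow its paralog on day 1. It read 7.35, 7.41 and 7.79 then, overlapping the uninjured 7.35, 7.69 and 7.46 (difference 0.02). On day 3 it had fallen to 7.08, 7.13 and 6.56, a difference of -0.58 (SE 0.129, limma adjusted p = 1.2e-04). On day 10 it read 6.85, 7.17 and 6.61, lower by 0.62 (adjusted p = 5.5e-05). No array of either day reached the uninjured range. On day 20 it was lower by 0.30 (adjusted p = 0.0465), which was lost without any 1 of 4 arrays, uninjured replicates 2 and 3 and LC replicates 1 and 2 (adjusted p up to 0.239). That Nr1d1 and Nr1d2 differed in their day 1 change was not tested.

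The Per genes encode the partners of CRY in the inhibitory limb. Per3 had levels of 7.49, 7.28 and 7.33 on day 1 against 7.94, 7.91 and 7.99 in uninjured cord, lower by 0.58 (SE 0.149, limma adjusted p = 7.7e-04) without overlap. Per1 and Per2 did not pass on day 1, with differences of 0.28 and 0.18. On day 30 all Per genes passed upward. Per1 read 8.86, 8.89 and 8.51 against 8.27, 8.10 and 8.39 (difference 0.51, adjusted p = 0.00736). Per2 read 8.90, 8.94 and 8.90 against 8.43, 8.39 and 8.26, and Per3 read 8.24, 8.33 and 8.44. None of these day 30 arrays overlapped uninjured cord. The Per2 difference of 0.55 (adjusted p = 0.0401) was lost when any 1 of its 6 arrays was left out (0.0572 to 0.106). The Per3 difference of 0.39 (adjusted p = 0.0251) was lost without uninjured replicate 1 or 2 or LC replicate 2 or 3 (0.0513 to 0.0916). RT1-CE10 was above 9 in all LC arrays of days 1 and 30 and in no uninjured array, so those days stood on another side of that gene's level than uninjured cord; days 10, 20 and 60 did not.

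**Figure D1:**
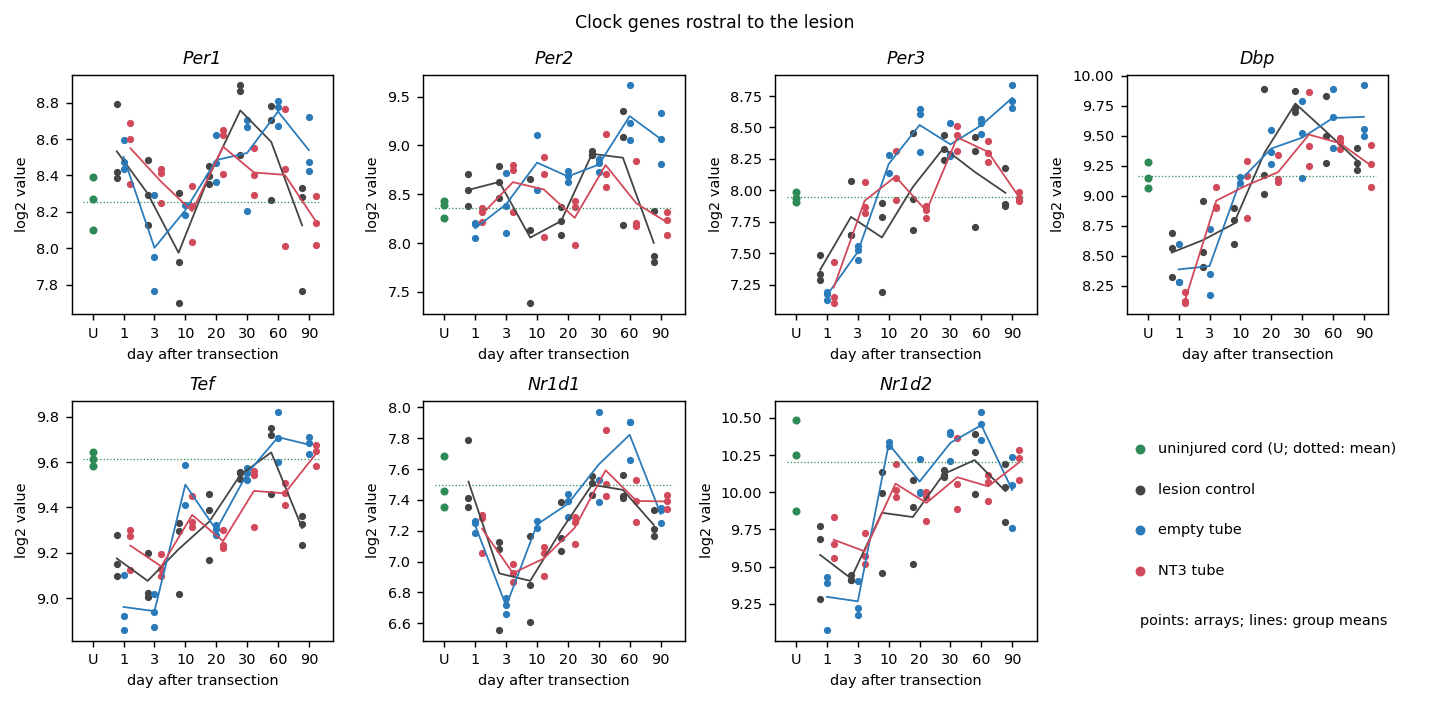
Log2 level of each of the 7 clock genes (y axis) in every rostral array by day after transection (x axis, U for uninjured), with points for arrays, lines for group means of lesion control, empty tube and NT3 tube, and a dotted line at the uninjured mean. Tef and Nr1d2 lie low on days 1 and 3, Dbp of lesion control passes from 8.53 on day 1 to 9.77 on day 30, and the empty tube arrays of Per2 and Per3 stand above the others on day 90.

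Caudal of the lesion, cord that had lost its input from the brain gave a like picture with fewer calls. Of 49 pairs, 13 passed, 12 lower and 1 higher, against 55.5% of all gene and day pairs. Of these 13, 6 held with each array left out, 12 pairs passed without the 3 arrays that stood apart, and 8 passed with the beta-actin difference as a covariate. On days 1 and 3 at least 4 members passed in both segments, and no other day met that. On day 1 the same 4 genes, Per3, Dbp, Nr1d2 and Tef, were lower rostrally and caudally, beside 56.8% of all genes caudally. On day 3 Dbp, Nr1d1, Nr1d2 and Tef were lower in both, beside 63.2% caudally. On days 10, 20, 30, 60 and 90, 2, 2, 1, 0 and 0 members passed caudally, and 56.4%, 56.5%, 53%, 50.9% and 51.9% of all genes. The caudal differences on day 1 were -0.42 for Per3 (limma adjusted p = 0.018), -0.54 for Dbp (adjusted p = 0.0105), -0.63 for Nr1d2 (adjusted p = 2.4e-04) and -0.43 for Tef (adjusted p = 4.0e-04). Without caudal LC replicate 1 the Per3 value became 0.0665, and without replicate 3 the Dbp value became 0.0538. On day 3 the caudal Nr1d2 arrays read 9.49, 9.42 and 9.46, again tight and below every uninjured array (-0.75, adjusted p = 1.8e-05). The uninjured arrays are shared by both segments, so the segments are not independent of each other here.

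Nr1d1 was low caudally on day 3 (-0.61, limma adjusted p = 5.6e-04) and day 10 (-0.65, adjusted p = 3.0e-04). On day 20 it was lower by 0.38 (adjusted p = 0.0308), a call lost without LC replicate 2 or uninjured replicate 2 (0.125 to 0.157). Nr1d2 on day 20 (-0.36, adjusted p = 0.0302) was lost without any 1 of 4 arrays, LC replicates 1 and 2 and uninjured replicates 1 and 3, with values up to 0.366. Dbp was lower on day 3 by 0.47 (adjusted p = 0.0222) and on day 10 by 0.48 (adjusted p = 0.0235), and higher on day 30 by 0.44 (adjusted p = 0.0409). Each of these 3 Dbp calls was lost without LC replicate 3. They were also lost without uninjured replicate 3 on days 3 and 10, LC replicate 1 on days 10 and 30, and uninjured replicate 1 or 2 on day 30 (values up to 0.145). Across the days of LC, 5 of 7 members differed caudally against 73.3% of all genes. Per1 (adjusted p = 0.0717) and Per2 (adjusted p = 0.256) were the members that did not pass. Neither Per1 nor Per2 passed against uninjured cord on any caudal day.

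In tissue from the lesion site the PAR bZIP and REV-ERB genes were low on days 3 and 10, and all Per genes were high on days 30, 60 and 90. Whether these changes differed from those in the flanking cord was not tested. RT1-CE10 was above 9 in all lesion-site LC arrays of days 30 and 90, but in no uninjured array and no LC array of days 10 and 60. The group mean of 4 tested skeletal muscle markers stood 0.27 to 2.39 above uninjured cord over the 6 lesion-site LC days. The part of either in these changes was not tested. Of 42 pairs, 28 passed, 11 lower and 17 higher, against 73.9% of all gene and day pairs. On days 3, 10, 20, 30, 60 and 90, 6, 4, 4, 4, 6 and 4 of 7 members passed, beside 74.4%, 75.7%, 75%, 74.4%, 71.9% and 72.2% of all genes. Of these, 16 held with each array left out, and 23 pairs passed without the 3 arrays that stood apart. Every member differed across the LC days at the lesion site (limma F test, 7 of 7; 70.6% of all genes). On day 3 Tef read 8.65, 8.73 and 8.47, lower than uninjured cord by 1.00 (SE 0.185, limma adjusted p = 1.4e-05). Dbp read 8.43, 8.09 and 8.15, lower by 0.94 (SE 0.270, adjusted p = 0.00247), and Nr1d2 read 9.38, 9.61 and 9.25, lower by 0.79 (adjusted p = 2.7e-04). None of these arrays reached the uninjured range. On day 10 Dbp (-0.94, adjusted p = 0.00232) and Tef (-0.86, adjusted p = 1.1e-04) were still low, as were Nr1d1 (-0.71, adjusted p = 0.0145; lost without LC replicate 1 or uninjured replicate 2) and Nr1d2 (-0.45, adjusted p = 0.0272; lost without LC replicate 1 or uninjured replicate 1 or 3). Nr1d1 was lower by 0.62 on day 3 (adjusted p = 0.0327; lost without LC replicate 2 or 3 or uninjured replicate 2 or 3, up to 0.125). Per3 was lower by 0.66 (adjusted p = 0.0222; lost without LC replicate 3 or uninjured replicate 3, up to 0.0814).

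Per2 was the only member that passed upward on day 3 at the lesion site, where Per1 did not pass (difference 0.17). Its LC arrays read 8.95, 9.16 and 9.23 and all lay above the uninjured 8.43, 8.39 and 8.26, a difference of 0.75 (SE 0.249, limma adjusted p = 0.00755). On day 30 Per2 read 10.01, 10.09 and 9.68, higher by 1.56 (adjusted p = 1.3e-06, 2.96-fold), and on day 60 it was 2.82-fold higher (adjusted p = 3.0e-06). It was the largest difference of any member against uninjured cord in LC. On day 90 it had come down to 8.89, 9.32 and 8.60 (difference 0.57, adjusted p = 0.0394), which was lost without any 1 of 5 of the 6 arrays, all but LC replicate 3 (0.0554 to 0.215). A second Per2 probe set, with a lower mean of 8.34, had the same sign in 7 of 9 called differences but a median difference of 0.0068 where the one used here had 0.64, so the size of the Per2 steps rests on 1 probe set. On lesion-site days 3 and 20 the second probe set read -0.033 and -0.0056 against uninjured cord. On those days the direction of the Per2 difference rests on 1 probe set as well.

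Per1 stayed high once it had risen. It read 9.13, 9.50 and 9.26 on day 30, 9.23, 9.26 and 9.30 on day 60, and 8.85, 9.65 and 9.41 on day 90, all above the uninjured arrays. The differences from uninjured cord were 1.05 (limma adjusted p = 7.5e-06, 2.06-fold), 1.01 (adjusted p = 1.4e-05) and 1.05 (adjusted p = 7.4e-06). Per3 was higher by 1.04 on day 30 (adjusted p = 5.9e-04), by 1.14 on day 60 (adjusted p = 2.1e-04, 2.21-fold) and by 1.02 on day 90 (adjusted p = 7.2e-04), again without overlap. Its second probe set agreed in sign in 10 of 11 called differences, with a median of -0.0062 against 0.39.

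Nr1d1 had its highest LC level at the lesion site on day 60, at 9.05, 8.33 and 9.04. This was 1.31 above uninjured cord (SE 0.259, limma adjusted p = 4.0e-05, 2.48-fold), and the lowest of these arrays was above the highest uninjured one. On day 90 it read 8.14, 8.20 and 8.10 (difference 0.65, adjusted p = 0.0263; lost without LC replicate 1 or 2 or uninjured replicate 1 or 3, up to 0.0819). Nr1d2 passed on day 60 only among the late days, at 10.72, 10.47 and 10.84 (0.47, adjusted p = 0.0212; lost without LC replicate 1 or 3 or uninjured replicate 2, up to 0.16). A second Nr1d2 probe set had the same sign in 13 of 13 called differences (median -0.27 against -0.51), and another, with a mean level of 5.09, in 6 of 13 (median 0.22).

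Dbp at the lesion site rose above uninjured cord on day 30 (9.81, 9.76 and 10.09; difference 0.72, limma adjusted p = 0.017; 0.0674 without LC replicate 3) and on day 60 (0.62, adjusted p = 0.0405; lost without LC replicate 3 or any uninjured array, up to 0.251). By day 90 it did not differ beyond the spread (-0.14). Tef returned to 9.65, 9.60 and 9.62 on day 30 and stayed within 0.03 of uninjured cord on day 60 (difference 0.03), so unlike the Per genes and Nr1d1 it had no late call above uninjured cord. On day 20 the LC arrays were split: replicate 3 of Dbp read 9.99 while replicates 2 and 5 read 8.42 and 8.53, and the same replicate 3 read 9.05 for Per3 where the others read 7.19 and 7.84. The day 20 differences of Per1 (0.50), Per2 (0.64), Nr1d2 (-0.51) and Tef (-0.71) passed, but the first 3 of these were each lost without 1 or more single arrays. Those were replicate 5 and uninjured replicate 2 for Per1, replicate 3 and uninjured replicate 3 for Per2, and replicates 2 and 5 and uninjured replicate 1 for Nr1d2 (adjusted p up to 0.166).

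**Figure D2:**
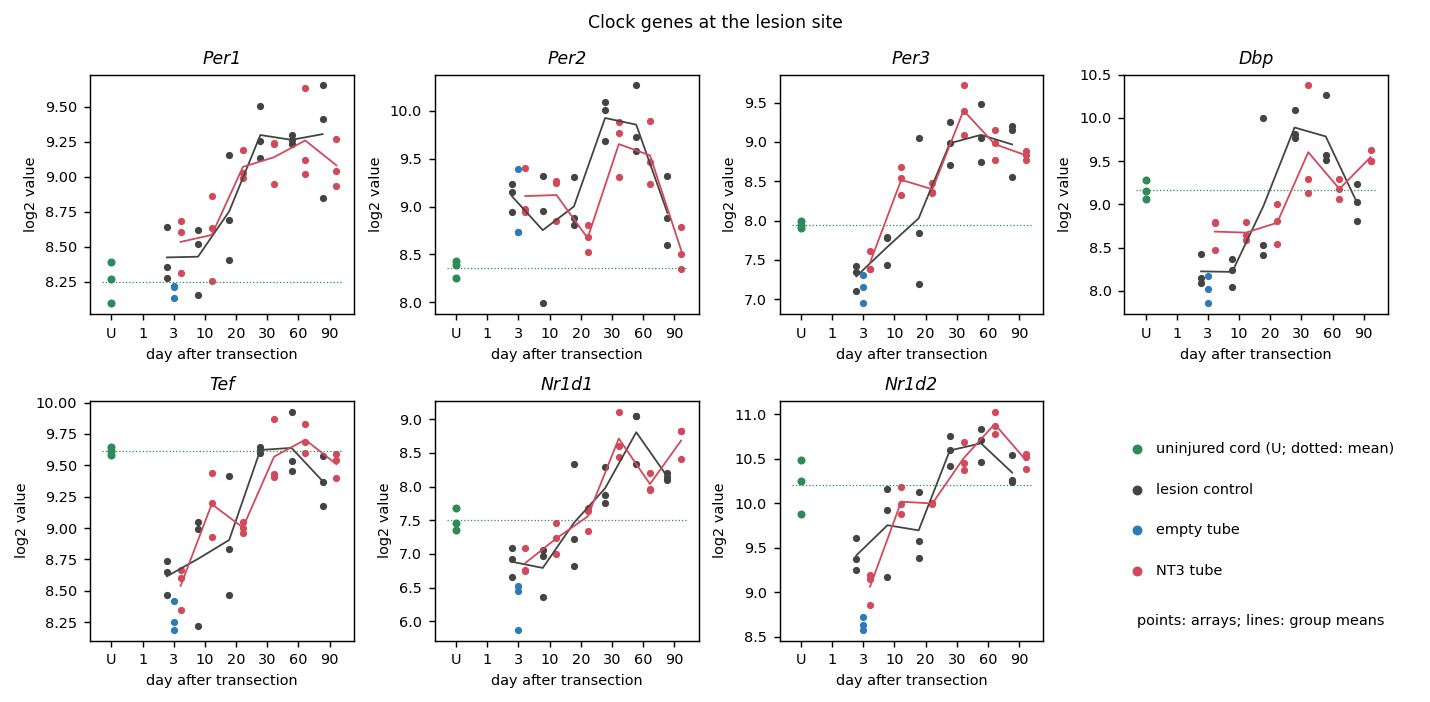
Log2 level of the 7 clock genes (y axis) in every lesion-site array by day after transection (x axis, U for uninjured), with points for arrays, lines for group means and a dotted line at the uninjured mean; the empty tube has day 3 only. The Per genes of lesion control lie above all uninjured arrays on days 30 and 60, whereas Tef and Dbp lie below them on day 3.

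The LC days and uninjured cord were also ordered by their mean. Most neighbours in that order overlapped. Neighbours are the groups closest in mean by construction, so this overlap cannot show how coarse a time course is. Rostrally, neighbours did not overlap at 1 of 7 steps for Dbp and 1 for Nr1d1 and at 2 for Tef, and at none for Per1, Per2, Per3 and Nr1d2. At the lesion site they did not overlap at 2 of 6 steps for Per3 and Nr1d1 and at 1 for Per1, Per2, Dbp and Tef. Caudally, Dbp and Nr1d1 had 1 such step each. These counts have no share over all genes beside them, so they describe the members and nothing particular to them.

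The second question was whether NT3 in the tube changed these levels. Rostrally 1 of 49 pairs passed in the comparison of NT3 with LC, with 8 at an unadjusted p under 0.05, while 6.2% of all gene and day pairs passed. Shares of all genes and pairs, here and below, are those past the adjusted threshold. Counts at an unadjusted p have no share over all genes beside them and cannot be set against these. The share of all genes that passed was 30.7%, 7.09%, 0%, 0.00831%, 0.141%, 0.357% and 5.13% on the 7 days in turn, so day 1, the day with most calls over all genes, had none among the members. That pair was Tef on day 90. NT3 arrays read 9.68, 9.65 and 9.58 and LC arrays 9.33, 9.36 and 9.24, without overlap (difference 0.33, SE 0.081, limma adjusted p = 0.0199). It was lost without NT3 replicate 1 or 2 or LC replicate 1 or 3 (0.0505 to 0.081), and RT1-CE10 was above 9 in all of these LC arrays and in none of the NT3 arrays. Tef was also the only member whose rostral NT3 effect differed between days (F test, adjusted p = 0.0106; 28.2% of all genes passed).

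The largest rostral NT3 minus LC difference of each other member stayed short of the threshold. They were -0.34 for Per1 on day 30 (limma adjusted p = 0.355), 0.49 for Per2 on day 10 (adjusted p = 0.915) and 0.48 for Per3 on day 10 (adjusted p = 0.519). For the targets of the clock they were -0.39 for Dbp on day 1 (adjusted p = 0.0861), -0.31 for Nr1d1 on day 1 (adjusted p = 0.0655) and 0.20 for Nr1d2 on day 10 (adjusted p = 0.994). The day 10 values came from groups in which LC replicate 1 was low, with Per2 at 7.38 beside 8.13 and 8.66.

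Caudally 1 of 49 pairs passed for NT3 against LC, with 9 at an unadjusted p under 0.05 and 1.94% of all pairs passing (8%, 3.22%, 0.806%, 0.806%, 0%, 0.0249% and 0.739% of all genes by day). It was Dbp on day 1, when NT3 arrays read 8.32, 7.79 and 7.95 and LC arrays 8.77, 8.62 and 8.48. All NT3 arrays lay below all LC arrays (difference -0.61, SE 0.183, limma adjusted p = 0.0302). The call was lost when any array but NT3 replicate 1 was left out (0.0505 to 0.185), and RT1-CE10 was above 9 in all of these LC arrays and in none of the NT3 arrays. Dbp (adjusted p = 0.0493) and Per3 (adjusted p = 0.0223) had a caudal NT3 effect that differed between days, as did 7.18% of all genes. The largest caudal differences of the other members did not pass: 0.21 for Per1 on day 1, 0.32 for Per2 on day 10, -0.49 for Per3 on day 20, -0.37 for Nr1d1 on day 1, 0.27 for Nr1d2 on day 60 and 0.26 for Tef on day 10.

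Within the lesion site 3 of 42 pairs passed for NT3 against LC, with 6 at an unadjusted p under 0.05, while 21.5% of all pairs passed (17.8%, 5.22%, 33.5%, 18.1%, 25.7% and 28.8% of all genes from day 3 to day 90). Skeletal muscle markers were higher with NT3 on the days of these calls, 1 of 4 tested on day 10 (median 1.80), 3 on day 30 (median 2.35) and 4 on day 60 (median 2.80), and their part in the calls was not tested. Per3 on day 10 read 8.68, 8.33 and 8.54 with NT3 and 7.43, 7.77 and 7.79 in LC (difference 0.85, limma adjusted p = 0.0466), and it was lost without any 1 of its 6 arrays (0.0648 to 0.146). Nr1d1 passed on both day 30 and day 60 in opposite directions. On day 30 NT3 arrays read 9.11, 8.60 and 8.44 against 7.87, 7.76 and 8.30 (0.74, adjusted p = 0.0437). On day 60 they read 8.21, 7.95 and 7.96 against 9.05, 8.33 and 9.04 (-0.77, adjusted p = 0.0291). In neither case did the groups overlap, and RT1-CE10 was on the same side in both arms. Each was lost without any 1 of 4 arrays: NT3 and LC replicates 1 and 2 on day 30 (up to 0.194), and NT3 replicates 2 and 3 and LC replicates 1 and 3 on day 60 (up to 0.128). The NT3 effect on Nr1d1 differed between days at the lesion site (F test, adjusted p = 0.0124), and so did that on Dbp (adjusted p = 0.0418), as for 50.6% of all genes.

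The empty tube was compared with LC on the same days, with the LC arrays shared with the comparison above. Rostrally 4 of 49 pairs passed, all higher with the tube, and 7.64% of all pairs passed (1.91%, 2.13%, 0.0249%, 0.15%, 18.9%, 21.8% and 8.55% of all genes by day). At an unadjusted p under 0.05 there were 15 of the 49, a count with no share over all genes beside it. Of the 4 that passed, 3 fell on day 90. Per2 read 9.06, 8.81 and 9.33 with the empty tube against 7.86, 8.33 and 7.81 in LC (difference 1.07, SE 0.231, limma adjusted p = 0.00169, 2.09-fold). Per3 read 8.66, 8.71 and 8.83 against 8.18, 7.89 and 7.87 (0.76, SE 0.149, adjusted p = 6.7e-04, 1.69-fold), and Tef read 9.63, 9.69 and 9.71 against 9.33, 9.36 and 9.24 (0.37, adjusted p = 0.00198). No arrays overlapped in these 3 cases, and each held with any 1 array left out. RT1-CE10 was above 9 in all rostral LC arrays of day 90 and in none of the ET arrays, and 3 of 7 neuronal markers were lower with the empty tube (median -0.32); the part of either was not tested. The median of the 7 members on that day was 0.37 against 0.0044 over all genes. The other pair was Nr1d1 on day 60, at 7.91, 7.66 and 7.90 against 7.41, 7.42 and 7.56 (0.36, adjusted p = 0.0393; lost without ET replicate 1 or 3 or LC replicate 1 or 2, 0.108 to 0.14). There too the arms stood on different sides of the RT1-CE10 level, and all 7 neuronal markers were lower with the empty tube, by a median of 0.99.

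NT3 against the empty tube gave 8 of 49 rostral calls, 1 higher and 7 lower, where 8.88% of all pairs passed (15%, 4.91%, 0%, 0.307%, 0%, 17.5% and 24.5% of all genes by day). These comparisons share the ET arrays with the one before. On day 60 Per2 read 8.17, 8.20 and 8.84 with NT3 and 9.23, 9.06 and 9.62 with the empty tube (difference -0.90, limma adjusted p = 0.00532). On day 90 Per2 read 8.23, 8.08 and 8.32 with NT3, lower than the empty tube by 0.86 (adjusted p = 0.00569), and Per3 read 7.99, 7.91 and 7.94, lower by 0.79 (adjusted p = 2.0e-04). None of these 3 pairs of groups overlapped, all 3 held with any 1 array left out, and the arms were on the same side of the RT1-CE10 level on day 90 but on different sides on days 60 and 1. Of the neuronal markers, 4 of 7 neuronal markers on day 60 and 5 of 7 on day 90 were higher with NT3, by medians of 0.51 and 0.54. The other 5 calls were Tef on day 1 (0.27, adjusted p = 0.0174) and day 60 (-0.25, adjusted p = 0.0271), Per3 on day 20 (-0.68, adjusted p = 0.0272), and Nr1d1 (-0.43, adjusted p = 0.0164) and Nr1d2 (-0.41, adjusted p = 0.0455) on day 60. The day 60 calls were lost without ET replicate 1 or 3 or, by gene, without some or all of the other arrays. The Tef call of day 1 was lost without NT3 replicate 1 or 2 or ET replicate 1 or 3, and the Per3 call of day 20 without any array but ET replicate 3. Without ET replicate 1 or 3 of day 60 the count of 8 fell to 5. In both Tef calls the other Tef probe sets had the opposite sign. They differed by -0.032 and -0.095 on day 1 and by 0.51 and 0.23 on day 60.

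Caudally no member passed for the empty tube against LC by limma (0 of 49, with 11 at an unadjusted p under 0.05; 3.44% of all pairs passed, and 18.5%, 1.54%, 3.44%, 0%, 0.0997%, 0.125% and 0.316% of all genes by day). Per2 on day 90 read 8.71 to 9.27 against 7.84 to 8.45, without overlap (difference 0.88, limma adjusted p = 0.055). Dbp on day 3 was the 1 caudal call for NT3 against the empty tube (1.88% of all pairs passed, and 6.59%, 3.96%, 0.00831%, 0.689%, 0.0166%, 1.84% and 0.0249% of all genes by day), at 9.03, 9.10 and 9.06 against 8.45, 8.52 and 8.21 (0.67, adjusted p = 0.026; lost without any NT3 array or ET replicate 3, 0.0692 to 0.151). At the lesion site on day 3 Nr1d2 read 8.63, 8.58 and 8.73 with the empty tube, all below the LC arrays (-0.77, adjusted p = 0.0028; 1 of 7 members and 23.2% of all genes passed), and it held with any array left out. No member passed there for NT3 against the empty tube by limma, with 3 of 7 at an unadjusted p under 0.05 and 7.23% of all genes passing.

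Over all days and segments, comparisons were split by whether all arrays of both arms lay on the same side of the RT1-CE10 level. LC groups split by that level, on day 3 and lesion-site day 20, were counted as different. For the empty tube against LC, members passed in 5 of 49 different-side pairs and 0 of 56 same-side pairs, beside 8.24% and 5.38% of all genes. Of those 5 calls, Nr1d2 at the lesion site on day 3 came from a split LC group. For NT3 against the empty tube the counts were 5 of 28 and 4 of 77, beside 10.2% and 3.79%. For NT3 against LC they were 2 of 63 and 3 of 77, beside 15% and 4.65%.

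Rostral and caudal cord tracked each other group by group. Over the 21 combinations of arm and day, the group means of rostral and caudal pieces correlated with r of 0.95 for Dbp, 0.93 for Per3, 0.86 for Tef, 0.85 for Nr1d2, 0.84 for Nr1d1, 0.81 for Per1 and 0.76 for Per2, against a median of 0.64 over all genes. Among all genes these r stood at percentile 97 for Dbp, 95 for Per3, 85 for Tef and 84 for Nr1d2. For Nr1d1, Per1 and Per2 it was 81, 77 and 69, so such tracking was common in the series. These are descriptions over means whose arrays were taken on the same days. The sign of the NT3 minus LC difference was the same in both segments for 34 of 49 pairs, or 69.4%, against 53.4% over all genes. The segments share no arrays here, but same-numbered arrays deviated together for some members, so the segments may not be independent. The difference in the NT3 effect between rostral and caudal cord passed for 0 of 49 pairs by limma, with 3 at an unadjusted p under 0.05 and 1.14% of all pairs passing (0.955%, 0.0332%, 0.0415%, 0.0581%, 0%, 0% and 6.89% of all genes by day). As a mean over the groups, Tef was lower rostrally, at 9.36 against 9.46 (difference -0.11, SE 0.020, limma adjusted p = 2.2e-05), and Nr1d1 was higher, at 7.28 against 7.17 (0.10, SE 0.031, adjusted p = 0.00942; 0.284 without the arrays of replicate number 2). The other 5 members did not pass, with differences from -0.03 to 0.06, and 27.8% of all genes passed.

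Arrays with the same arm, day and replicate number also deviated together from their group means for part of the list. The clearest case was Per2 in LC on day 10, when replicate 1 read 7.38 rostrally, 7.61 caudally and 7.99 at the lesion site, while replicates 2 and 3 read 8.13 and 8.66, 8.62 and 8.65, and 9.32 and 8.95. Replicate 1 was the lowest in all 3 segments. On day 60 LC replicate 1 was again the lowest for Per2, at 8.19 rostrally beside 9.08 and 9.36, and at 8.04 caudally beside 8.99 and 8.72. Over 62 pairs of rostral and caudal arrays the Per2 deviations correlated with Pearson r = 0.72 and Spearman rho = 0.68. Permuting numbers within groups gave a p of 1.0e-05 for both, the smallest that 100000 resamples can give, and adjusted over the 21 relations tested it was 2.1e-04. Without the 2 arrays farthest from the median on the rostral axis r was 0.63, and the same replicate number was highest in both segments in 14 of 20 groups of 3. In the groups with RT1-CE10 above 9 in both segments r was 0.42 (21 pairs), and in those with it at or below 9 it was 0.81 (38 pairs).

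Per3 and Per1 showed the same to a lesser degree, with r = 0.51 and rho = 0.46 for Per3 (permutation, adjusted p = 0.0144 and 0.0113; r = 0.44 without 2 arrays) and r = 0.47 and rho = 0.44 for Per1 (permutation, adjusted p = 0.0144 and 0.0173; r = 0.46). Nr1d2 (r = 0.48, rho = 0.34, permutation adjusted p = 0.05 and 0.0909) and Dbp (r = 0.44, rho = 0.36, permutation adjusted p = 0.0509 and 0.0622) did not pass, and each came down to 0.33 without the 2 farthest arrays. Tef had r = -0.05 and rho = -0.09, and Nr1d1 r = 0.07 and rho = 0.20. The median r over all genes was 0.04. Within groups with RT1-CE10 above 9 and at or below it, r was 0.47 and 0.57 for Per3 and 0.61 and 0.39 for Per1. Caudal and lesion-site deviations correlated for Per2 (r = 0.70, rho = 0.69, permutation adjusted p = 0.0121 and 0.00315, 38 pairs, r = 0.60 without 2 arrays) and for Tef (r = 0.75, rho = 0.71, permutation adjusted p = 0.013 and 0.00504, r = 0.65). Rostral and lesion-site deviations correlated for Per2 (r = 0.60, rho = 0.57, permutation adjusted p = 0.0313 and 0.0173, r = 0.48) and Per3 (r = 0.57, rho = 0.62, permutation adjusted p = 0.0313 and 0.0113, r = 0.50). The other relations of these 2 kinds did not pass. Dusp1, Fkbp5 and Tsc22d3, which glucocorticoids are known to induce, had rostral to caudal r of 0.70, 0.69 and 0.33. The clock genes Bmal1, Npas2 and Hlf had 0.30, 0.40 and 0.13. These genes were picked from longer lists and had no permutation test, so they are given as values only.

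**Figure D3:**
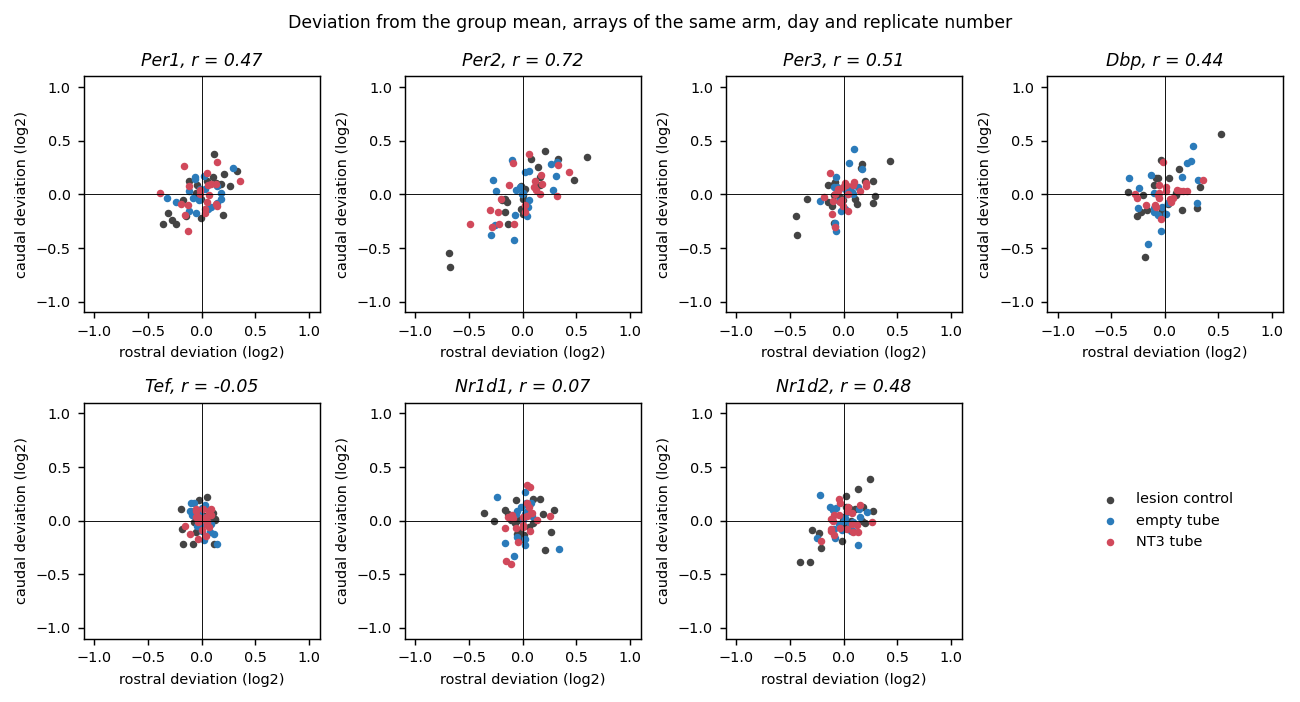
Deviation of each rostral array from its group mean (x axis, log2) against that of the caudal array with the same arm, day and replicate number (y axis, log2), 1 panel per clock gene, 62 points each. Per2 runs along the diagonal with r = 0.72 and its 2 lowest points are lesion control arrays, while Tef and Nr1d1 form round clouds.

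The members did not all move as a block. Over the 42 rostral and caudal group means, each gene's correlation with the mean of the other 6 was 0.84 for Per3, 0.83 for Dbp, 0.82 for Tef and 0.78 for Nr1d2, but 0.55 for Nr1d1, 0.51 for Per2 and 0.35 for Per1. Over the 13 lesion-site group means it was 0.98 for Tef and 0.96 for Per3 and lay between 0.92 and 0.93 for Per1, Dbp, Nr1d1 and Nr1d2, with Per2 at 0.50. Per2 was the member least like the others at the lesion site, and Per1 in the flanking cord.

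Of 22 other clock genes listed, 18 had a probe set and 17 passed the filter on low values. In LC cord 16 of the 17 differed across days rostrally, 13 caudally and 12 at the lesion site (limma F test; 72.5%, 73.3% and 70.6% of all genes). Hlf, the remaining PAR bZIP gene, was lower rostrally on days 1 (-0.35), 3 (-0.50) and 10 (-0.36) and caudally on the same days (-0.41, -0.42 and -0.23), and higher at the lesion site on days 30 (0.75), 60 (0.99) and 90 (1.11), all passing. With the empty tube Hlf was higher rostrally than in LC on days 60 (0.46) and 90 (0.64), and it was lower with NT3 than with the empty tube on both (-0.45 and -0.67). Nfil3, whose product represses at the D-box, was higher on days 1 and 3 rostrally (1.25 and 1.02) and caudally (1.00 and 0.99), and at the lesion site on every day (0.47 to 1.15).

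Of the activators, Bmal1 was higher by 0.50 in both flanking segments on day 1 and at the lesion site on days 10 (0.50), 20 (0.78) and 90 (1.22). Npas2, which can take the place of CLOCK, was lower rostrally from day 1 to day 30 (-0.57, -0.71, -0.88, -0.73 and -0.83) and on day 90 (-0.48). Clock was lower on rostral day 20 (-0.28) and on caudal day 30 (-0.34). Of the repressors, Cry2 was lower on every day in every segment (rostral -0.39 to -0.87), whereas Cry1 was lower rostrally on days 10 (-0.52), 20 (-0.31) and 90 (-0.40). Bhlhe40, which competes for E-boxes, was higher on every day in every segment (up to 1.65 rostrally and 2.02 at the lesion site), and its paralog Bhlhe41 was higher rostrally on days 20 (0.45), 30 (0.59) and 60 (0.29). Rorb was higher on every rostral day (0.34 to 0.95) and lower on every lesion-site day (-0.49 to -0.95), and Rora was lower on rostral day 30 (-0.91). Ciart had no single-symbol probe set matched here.

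Some other clock genes passed for NT3 against LC from day 1 on. The calls named here have no count of pairs beside them. The share of all genes that passed on each day stands with the members' counts above. On day 1 Npas2 was higher with NT3 than in LC by 0.68 rostrally and 0.70 caudally. Nfil3 was higher caudally on day 1 (0.49) and lower on day 3 in both segments (-0.46 rostrally, -0.60 caudally), as was Clock on day 3 (-0.38 and -0.40). At the lesion site Npas2 was higher on day 30 (1.52), Hlf lower on day 3 (-1.41) and Bmal1 lower on day 90 (-0.99). RT1-CE10 was above 9 in all LC arrays and no NT3 array of flanking day 1 and lesion-site day 90. The LC groups of day 3 were split by that level, and its part in these calls was not tested. Calls of these other clock genes, here and above, were not refitted with arrays left out or under the alternatives. Of the members' own calls for NT3 against LC, 0 of 1 rostrally, 0 of 3 at the lesion site and 0 of 1 caudally held with each array left out. The NT3 effect differed between days for 2 of 17 of these genes rostrally, 4 caudally and 8 at the lesion site (28.2%, 7.18% and 50.6% of all genes).

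**Figure D4:**
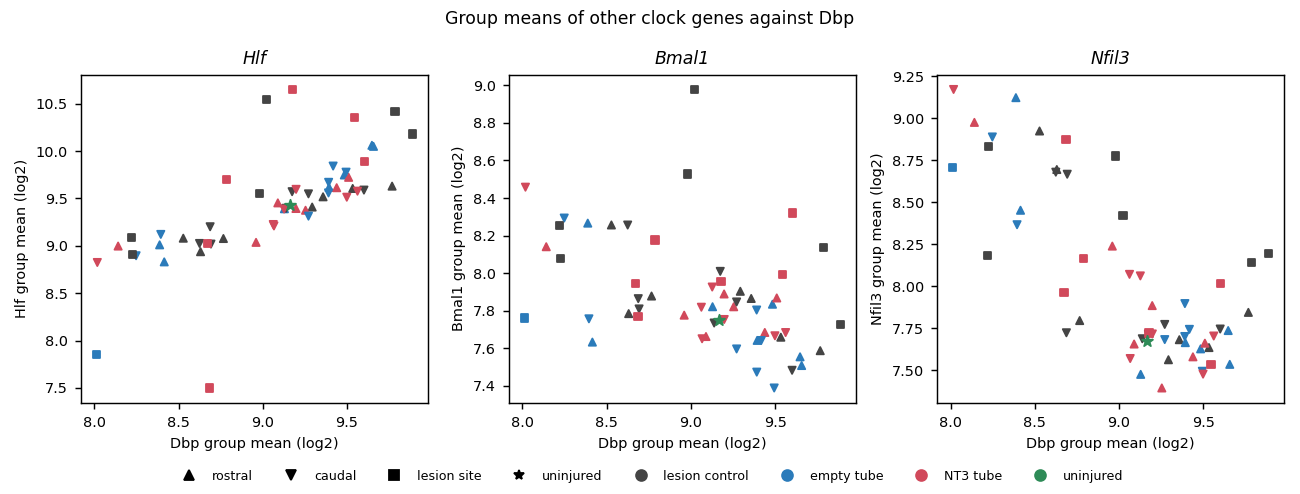
Group mean of Hlf, Bmal1 and Nfil3 (y axes, log2) against that of Dbp (x axis, log2) for all 56 groups, with marker shape for the segment and colour for the arm. Hlf climbs with Dbp in rostral and caudal groups, while Nfil3 leans the other way.

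Genes that respond to stress hormones and stimuli were counted beside these days because Per1 is known to respond to both. Of 11 tested glucocorticoid-responsive genes, 8 were higher and 1 lower in rostral LC than in uninjured cord on day 1 (median 1.29, all genes -0.00050), 8 and 2 on day 3 (median 0.81), and 8 and 0 on day 30 (median 0.86), beside 62.6%, 64.3% and 52.2% of all genes passing. The largest differences on day 1 were those of Mt2A (2.33), Dusp1 (1.57) and Pdk4 (1.55), and the gene that was lower was Tsc22d3 (-0.67). Of 8 tested immediate early genes, 7 were higher on rostral day 1 (median 1.87), led by Egr2 (2.63), Fos (2.56) and Junb (2.25), and on day 30 the count was 6 higher and 1 lower, beside the same 62.6% and 52.2% of all genes. Per1 itself passed on rostral day 30 and not on day 1, when its difference was 0.28.

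The genes most like the members were ranked by their correlation, over the 42 rostral and caudal group means, with the mean of the 7 centred members. Of 12033 other genes, 40 reached r of 0.8 and 12 reached -0.8 or below, with a median of -0.05. The 10 highest were Hlf (0.92), Eya1 (0.87), Tob2 (0.86), Itgb4 (0.86), Plekhh3 (0.85), Ldb3 (0.85), Cdc42ep4 (0.85), Scn7a (0.85), Cdh1 (0.84) and Slc9a2 (0.84). Over the 13 lesion-site means, which the ranking did not use, these 10 had r between 0.78 (Ldb3) and 0.93 (Cdc42ep4). The 10 lowest were Syt4 (-0.84), Prim1 (-0.84), Rad18 (-0.84), Aifm1 (-0.83), Pgk1 (-0.83), Fam118a (-0.83), Cyp51 (-0.83), Ddah1 (-0.82), Trh (-0.81) and Wipi2 (-0.81), with lesion-site r from -0.90 (Prim1, Trh) to -0.39 (Cyp51). Of the other clock genes, Wee1 (0.78), Bhlhe41 (0.63) and Usp2 (0.62) had the highest r after Hlf, and Nfil3 (-0.72), Noct (-0.68), Bmal1 (-0.64) and Timeless (-0.60) the lowest; Wee1, Usp2, Noct and Timeless were named after their values were seen. At the lesion site the r was 0.92 for Wee1, 0.12 for Bhlhe41, 0.54 for Usp2, -0.67 for Nfil3, -0.62 for Noct, 0.19 for Bmal1 and -0.77 for Timeless. Cry2 had 0.23 in the flanking cord and 0.88 at the lesion site. The points share arms and days, so these are descriptions.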

How the data were processed

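The authors hybridised biotin-labelled cRNA from total RNA (Trizol, then RNeasy, per the labels' protocols) to Affymetrix rat arrays and deposited log2 values made with GCOS, RMA and Affymetrix Expression Console, per the submitters' processing notes. The deposited table held 31099 probe sets. Of these, 20826 had 1 symbol, and each of 14217 genes was read from its brightest such probe set on average. RMA is relative to each array, so a shift in total RNA is not seen. Genes above the 40th percentile of an array in at least 3 arrays (12040) entered limma 3.58.1 (R 4.3.3), with group means fitted per segment together with the uninjured arrays, moderated tests and Benjamini-Hochberg adjustment over all genes tested. The table gives no scan date or counts, so the number of arrays limits the precision. Deviations were compared by permutation within groups with scipy 1.17.1. The fits were tested on simulated data. Members and gene lists were chosen with earlier results of these data known. Named were the members, a fixed set of other clock genes, the days of the largest NT3 minus LC differences and of at least 4 calls in both flanking segments, and the 10 most and least alike genes. Alternatives were other filters, scalings, probe sets, fits, array weights, a replicate block, a beta-actin covariate and arrays left out.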

Additional observations from a re-analysis of the deposited data

Results flagged for a closer look

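For 5 results the effect of NT3 against LC differed between days by an F test of the difference itself. Rostrally this was Tef (limma adjusted p = 0.0106), whose largest difference fell on day 90. At the lesion site it was Nr1d1 (limma adjusted p = 0.0124), higher with NT3 on day 30 and lower on day 60, and Dbp (limma adjusted p = 0.0418), for which no single day passed. Caudally it was Per3 (limma adjusted p = 0.0223), for which no single day passed, and Dbp (limma adjusted p = 0.0493), lower on day 1. With one array left out at a time the caudal Dbp value lost its call in 33 of 42 cases and the lesion-site Dbp value in 22 of 36, while the Nr1d1 value held in 36 of 36.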

How the results depend on the processing

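The members' 141 single results held called differences, F tests, which have no direction, and some differences that did not pass. They were unchanged in 1434 of 1544 comparisons with an alternative. A result that still did not pass counts as unchanged. In 94 comparisons a result no longer passed, in 13 it newly passed and 3 were reversed. The 3 turned round when all probe sets of a gene were averaged: Nr1d2 in LC against uninjured on rostral day 10 became 0.00169 (adjusted p 0.995) and on lesion-site day 20 0.0237 (adjusted p 0.92), and Tef for NT3 against ET on rostral day 60 became 0.166 (adjusted p 0.088). With probe sets averaged, rostral calls of LC against uninjured went from 20 to 13 and of NT3 against ET from 8 to 4, caudal calls of ET against LC from 0 to 1 and of NT3 against ET from 1 to 2, members with a caudal NT3 effect that differed between days from 2 to 1, and members that differed between rostral and caudal means from 2 to 1.

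One fit of all arrays of the series gave 3 rostral calls for NT3 against ET, 2 for ET against LC and 0 for NT3 against LC, and 0 members with a rostral NT3 effect that differed between days. It gave 7 lesion-site calls for NT3 against LC and 4 members there whose NT3 effect differed between days, 0 caudal calls for NT3 against LC and for NT3 against ET, 0 members with a caudal NT3 effect that differed between days, and 1 with a difference between rostral and caudal means.

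Array weights were estimated gene by gene after the default estimate had not converged and its counts had been seen. They made 9 of these single results newly pass and 4 no longer pass. The counts that moved were 14 for NT3 against ET, 9 for ET against LC and 5 for NT3 against LC rostrally, 10 for NT3 against LC at the lesion site, 8, 5 and 6 for the same 3 comparisons caudally, 4 members each with a rostral and a caudal NT3 effect that differed between days, and 4 pairs with an NT3 effect that differed between rostral and caudal cord. Beta-actin as a covariate gave 8 caudal calls of LC against uninjured in place of 13, 2 rostral calls for NT3 against LC, and caudally 1 for ET against LC and 3 for NT3 against ET. Caudal calls for ET against LC were 1 with the 60th-percentile filter and 2 with 75th-percentile scaling, and those for NT3 against ET were 2, 2 and, with quantile normalization, 3. The caudal count of members whose NT3 effect differed between days was 1 with no filter and 1 without the 3 arrays that stood apart. The causes were not tested.

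With the replicate block the caudal count of members whose NT3 effect differed between days was 1, because Dbp no longer passed (limma adjusted p 0.0548). The caudal calls were 1 for ET against LC and 2 for NT3 against ET. Per1 (0.24, limma adjusted p 0.233) and Nr1d2 (-0.34, limma adjusted p 0.133) of LC against uninjured on lesion-site day 20 were also lost. Over all genes, 32 of 62 same-numbered rostral and caudal arrays correlated above 0.1 in their deviations (median 0.11). Same-numbered arrays of different groups in the same segment did so in 214 of 610 rostral and 197 of 630 caudal pairs. Their medians were 0.0065 and -0.0079. The labels do not say whether a number links segments, and the numbers were not taken as pairs.

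Leaving out 1 array at a time gave ranges of 15 to 25, 21 to 30 and 10 to 15 calls of LC against uninjured rostrally, at the lesion site and caudally. The ranges were 0 to 2, 1 to 6 and 0 to 2 for NT3 against LC, 3 to 6 rostrally and 0 to 2 caudally for ET against LC, and 5 to 9 and 0 to 2 for NT3 against ET. Members that differed across LC days were 7 to 7 in rostral and lesion-site cord and 5 to 6 caudally, and those whose NT3 effect differed between days 1 to 2, 1 to 3 and 0 to 2. For rostral against caudal, where a replicate number was left out, the means gave 1 to 2 and the NT3 effect 0 to 0.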
